A study of Mus musculus with 6 samples.

Results

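The mitochondrial route to apoptosis was described through 9 genes that were chosen by name from the 23420 rows of the count table: the survival genes Bcl2, Bcl2l1, Bcl2l2 and Mcl1, the death activators Bcl2l11 and Bid, the effector Bak1, and the apoptosome genes Apaf1 and Casp9. The names were chosen to leave out the family members that are standard p53 targets, and no threshold on a measured value entered the rule. Earlier results of these data were known when the names were chosen. All 9 had counts high enough to be tested. The RNA was ribosome-bound RNA that the labels assign to cerebellar Purkinje neurons, the only output neurons of the cerebellar cortex, from C57BL/6 mice at 4 weeks of age with 1 cerebellum in each library. The conditional knockout (cKO) group held 3 libraries of the genotype Pcp2-BacTRAP; Pcp2-Cre; Rbm17 f/-, and the control group held 3 libraries of the genotype Pcp2-BacTrap; Rbm17 f/+ with no Cre. Both groups carried the BacTRAP transgene, in which a tagged ribosomal protein is made under the Pcp2 promoter, and the same promoter drives Cre in cKO. Cre and the null allele were present in cKO and absent from control, so their effects cannot be told apart from that of losing RBM17, a splicing factor that acts at 3' splice sites.

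In the BCL2 family, survival proteins hold BH3-only activators and the effectors BAK and BAX in check at the mitochondrial outer membrane. Once activators outweigh the survival proteins, BAK and BAX open the membrane, and released cytochrome c joins APAF1 into the apoptosome that activates caspase-9, the start of the caspase cascade. In neurons BCL-XL, the long product of Bcl2l1, is a main survival protein, and induction of BIM, the product of Bcl2l11, is a known step of death after loss of trophic support. Several of these genes make isoforms of opposite or unequal strength by alternative splicing, which is why junction reads are given beside gene counts.

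The sequences below are the stretches whose use was read from junctions, taken from GENCODE vM21 transcripts of GRCm38 except for the promoter. They show what each splice choice adds or leaves out. In Bcl2l11, all on chromosome 2 plus strand, the EL form keeps a stretch of 168 bases at chr2:128128757-128128924 that the L form splices out as an intron, with its first and last pairs of bases in capitals.
Bcl2l11 stretch kept in EL: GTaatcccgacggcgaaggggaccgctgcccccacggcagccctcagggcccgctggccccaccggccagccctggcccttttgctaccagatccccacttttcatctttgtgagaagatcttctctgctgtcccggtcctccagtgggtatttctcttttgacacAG
The S form leaves out this stretch and also the next 90 bases at chr2:128128925-128129014, which encode 30 codons with the site that tethers BIM to dynein light chain.
Bcl2l11 exon left out of S: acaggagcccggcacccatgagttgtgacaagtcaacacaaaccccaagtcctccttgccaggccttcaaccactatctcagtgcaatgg
In Bcl2l1 on the minus strand of chromosome 2, the short form splices from a donor inside the coding exon and so loses 189 bases at chr2:152829427-152829615, or 63 codons in frame. The capitals mark the pair of bases at the donor of the short form.
Bcl2l1 stretch of the long form: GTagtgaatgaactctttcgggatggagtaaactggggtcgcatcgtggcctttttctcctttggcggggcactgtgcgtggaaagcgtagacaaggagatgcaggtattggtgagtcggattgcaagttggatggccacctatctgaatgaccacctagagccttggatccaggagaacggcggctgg
In Bak1 on the minus strand of chromosome 17, a microexon of 20 bases at chr17:27021663-27021682 (capitals) shifts the reading frame and is known from neurons as the source of the N-BAK transcript.
Bak1 with the microexon: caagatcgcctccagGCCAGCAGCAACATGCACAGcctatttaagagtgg
Bak1 without the microexon: caagatcgcctccagcctatttaagagtgg
A second choice in Bak1 is between acceptors 5 bases apart. The downstream one leaves out the 5 bases in capitals at chr17:27022873-27022877.
Bak1 main acceptor: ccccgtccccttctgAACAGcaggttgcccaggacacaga
Bak1 downstream acceptor: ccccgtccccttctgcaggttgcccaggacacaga

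Rbm17 itself, the deleted gene, stood at 25.7, 25.6 and 26.3 CPM (gene counts scaled to library size) in cKO, against 41.2, 42.5 and 41.3 CPM in control, so that it fell by 0.69 on the log2 scale (SE 0.09, adjusted p = 0.00163 in edgeR). Its counts cover all of its exons, so they include any transcript that remains from the floxed allele and from other cells. Across all genes 647 were higher and 618 lower in cKO at an adjusted p under 0.05, which is 4.03% and 3.85% of 16067 tested. Total gene counts per library ranged from 145234116 to 160571518 in cKO and from 140110897 to 149552228 in control. Of 20 Purkinje markers 11 fell and 0 rose in cKO, with summed levels between 20472 and 23670 CPM in cKO and between 33663 and 44339 CPM in control. Of 20 markers of microglia and macrophages 10 rose and 0 fell, with summed levels between 142 and 239 CPM in cKO and between 75.1 and 107 CPM in control. Markers of granule cells summed to between 3617 and 5791 CPM in cKO and between 4320 and 5950 CPM in control. Of 15 markers of astrocytes and Bergmann glia 1 (Gfap) rose and 2 (Hopx and Slc4a4) fell, and their summed levels did not overlap, at 4009 to 4661 CPM in cKO and 5187 to 5825 CPM in control. The sums of the interneuron, oligodendrocyte and endothelial lists overlapped between the groups, and of 15 markers in each list 0 rose and at most 1 fell. The part of these markers in the results below was not tested. No marker of any list was at 0 in all 6 libraries. In bulk RNA such as this, fewer cells of a type and less RNA per cell cannot be told apart.

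Among the members Bcl2l11 rose strongly, Casp9 rose slightly, and the other 7 did not pass the test. The 2 members that passed were both higher in cKO and 0 were lower, where 7.87% of all genes tested passed in either direction. The groups of libraries did not overlap for 4 members, against 28.4% of all genes tested. The median log2 fold change of the 9 members was 0.23, against 0.01 for all genes tested. Since the members were chosen with earlier results of these data known, these comparisons describe the members and do not test them.

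Bcl2l11 encodes BIM, a BH3-only activator that binds every survival protein of the family. It stood at 223, 131 and 135 CPM in cKO, against 24.9, 22.0 and 23.7 CPM in control. Every cKO library lay more than 5-fold above every control library, and cKO replicate 1 stood apart from the other cKO libraries. The fitted fold was 6.93 (log2 fold change 2.79, SE 0.19, adjusted p = 7.97e-05 in the quasi-likelihood test of edgeR), the 8th smallest p and the 180th largest rise of all genes tested. Leaving out any 1 library kept the log2 fold change between 2.50 and 2.92 with the call in 6 of 6. Reads spliced over its annotated introns numbered 2183, 1003 and 1246 in cKO, against 130, 202 and 221 in control, and gave a log2 fold change of 2.82 (SE 0.30, edgeR, adjusted p = 0.00100). The summed microglial markers were also highest in cKO replicate 1, at 239 CPM against 142 and 170 CPM in the other cKO libraries, and their part in the Bcl2l11 rise was not tested.

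Bid and Bak1 were both higher on average in cKO without passing the test. Bid encodes the BH3-only protein that caspase-8 cleaves to link death receptors to mitochondria. It was low, at 3.51, 4.07 and 4.33 CPM in cKO against 3.12, 2.93 and 2.23 CPM in control. The 2 groups of Bid values did not overlap, but the log2 fold change of 0.52 (SE 0.23) had an adjusted p of 0.210 in edgeR. Its exons share 628 bases with Bcl2l13 on the opposite strand, and whether counting used strand is not given in the sources used here. Bak1 encodes BAK, an effector that forms pores in the outer membrane. It stood at 22.6, 25.7 and 28.1 CPM in cKO and at 21.5, 22.7 and 20.4 CPM in control, values that overlap narrowly (log2 fold change 0.24, SE 0.11, edgeR, adjusted p = 0.248). Bak1 exons overlap those of Ggnbp1 on the opposite strand.

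None of the 4 survival genes passed the test in either direction. Bcl2, the founding survival gene of the family, came closest, at 26.1, 19.3 and 21.1 CPM in cKO and 34.8, 33.7 and 26.9 CPM in control. The cKO values were all below the control values, though cKO replicate 1 and control replicate 3 were within 1 CPM of each other. Its log2 fold change was -0.52 (SE 0.14, edgeR, adjusted p = 0.0531). The adjusted p passed the threshold in 5 of 15 alternatives, among them DESeq2 at 0.0112 and the fits without cKO replicate 1 at 0.0319 and without control replicate 3 at 0.0300. Purkinje markers had a median log2 fold change of -0.54 in the same libraries, and their part in the Bcl2 value was not tested. Bcl2 shares 558 exon bases with the antisense gene D630008O14Rik.

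Bcl2l1, the source of BCL-XL, stood at 104, 111 and 120 CPM in cKO and at 128, 135 and 118 CPM in control. The highest cKO library lay above the lowest control library, and the log2 fold change was -0.18 (SE 0.09, edgeR, adjusted p = 0.283). Mcl1, which encodes a short-lived survival protein, stood at 79.8, 72.0 and 75.8 CPM in cKO and at 78.0, 89.4 and 92.5 CPM in control. Here too the groups overlapped, and the log2 fold change was -0.19 (SE 0.10, edgeR, adjusted p = 0.282). Bcl2l2, the source of BCL-W, a survival protein of the adult nervous system, stood at 90.4, 92.5 and 101 CPM in cKO and at 82.6, 86.0 and 99.9 CPM in control. Its log2 fold change was 0.08 (SE 0.10, edgeR, adjusted p = 0.701). Exons of Bcl2l2 share 594 bases with the readthrough gene Gm20521 on the same strand, so reads may have been lost or split there. With reads over annotated introns in place of gene counts, the sign turned for Mcl1 to 0.07 and for Bcl2l2 to -0.13, neither past the test.

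Of the apoptosome genes, Casp9 passed the test and Apaf1 did not. Casp9 encodes the initiator caspase of the mitochondrial route. It stood at 70.1, 82.6 and 77.3 CPM in cKO and at 60.3, 61.2 and 57.4 CPM in control. The groups did not overlap, with a log2 fold change of 0.36 (SE 0.09, a fold of 1.29, edgeR, adjusted p = 0.0411). This call rested on the full set of libraries: it held without cKO replicate 1 (adjusted p = 0.0346), was lost without any other library (adjusted p between 0.0619 and 0.150 in edgeR), and was not made with spliced reads (log2 fold change 0.25, adjusted p = 0.436). Casp9 shares 94 exon bases with Cela2a and with Ctrc on the opposite strand. Apaf1, the scaffold on which caspase-9 is activated, stood at 10.2, 7.82 and 9.49 CPM in cKO and at 9.85, 7.32 and 6.27 CPM in control. Its groups overlapped, with a log2 fold change of 0.23 (SE 0.19, edgeR, adjusted p = 0.544).

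**Figure D1:**
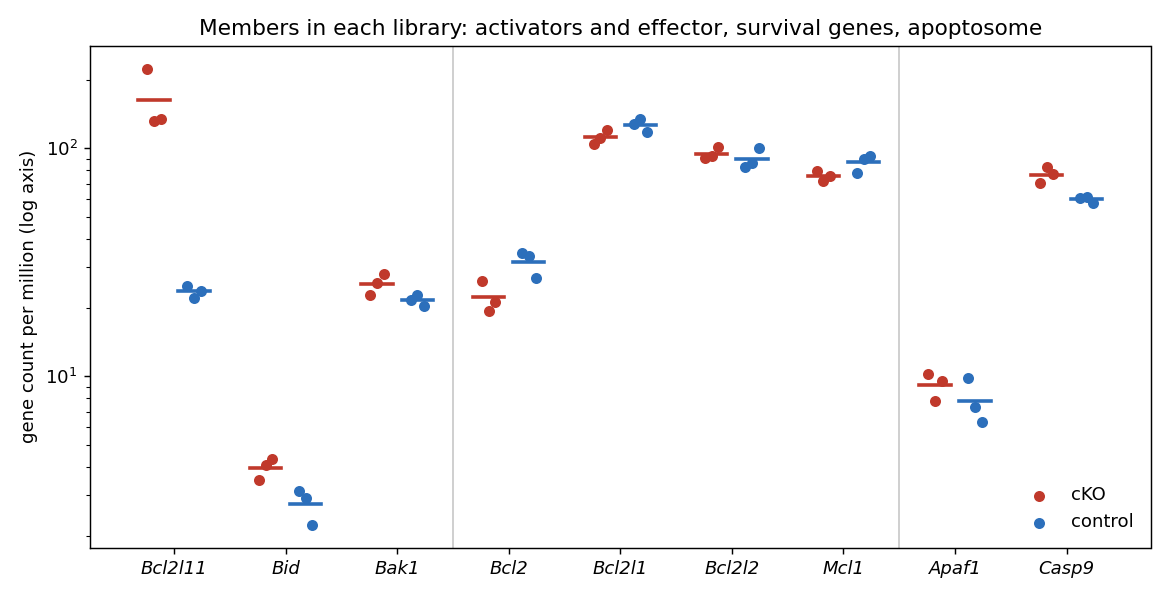
Gene levels in CPM (log axis) of the 9 members in each library, with cKO in red to the left of control in blue and the mean of 3 libraries as a line. Bcl2l11 stands at 131 to 223 CPM in cKO against 22.0 to 24.9 CPM in control, while the Bcl2l1, Bcl2l2 and Mcl1 groups overlap.

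Levels between genes were compared per kb of merged exon (RPKM, on the same scaled library sizes). In cKO the order was Bcl2l1 at 24.3, Mcl1 at 22.2, Bcl2l2 at 21.2, Bcl2l11 at 20.3, Casp9 at 14.7, Bak1 at 10.6, Bcl2 at 2.42, Bid at 1.12 and Apaf1 at 1.02 RPKM. In control it was Bcl2l1 at 27.7, Mcl1 at 25.3, Bcl2l2 at 20.1, Casp9 at 11.5, Bak1 at 8.95, Bcl2 at 3.47, Bcl2l11 at 2.93, Apaf1 at 0.865 and Bid at 0.777 RPKM. By gene counts per length, Bcl2l1, Mcl1 and Bcl2l2 were the highest survival genes in both groups, and Bcl2 was far below them. Reads over annotated introns, not scaled by length, gave another order below Bcl2l1. Bcl2 had 670, 509 and 462 such reads in cKO and 841, 843 and 630 in control. Mcl1 had 455, 446 and 371 in cKO and 300, 365 and 414 in control. Bcl2l2 had 31, 52 and 90 in cKO and 74, 45 and 46 in control. The place of Bcl2 thus depends on the measure, and the cause was not tested. Bcl2l11 was close to Bcl2 in control and followed the survival genes in cKO, where its libraries ranged from 16.4 to 27.8 RPKM and overlapped those of the 3 survival genes above it. In cKO the libraries of Bcl2l1, Mcl1 and Bcl2l2 also overlapped as neighbours in the order, as did Bid and Apaf1. In control Bcl2l1 and Mcl1 overlapped, as did Bcl2 with Bcl2l11 and Apaf1 with Bid.

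Splice junctions were read from the lists of spanning reads, which held between 73457422 and 83976095 reads per cKO library and between 73796963 and 78104343 per control library. A junction was called changed when its share of a cluster of junctions with common donors or acceptors differed at an adjusted p under 0.05 and by at least 5 percentage points. Of 43 member junctions tested 0 were called, where 0.751% of all 112047 junctions were (edgeR diffSpliceDGE). By adjusted p alone 2 of the 43 passed, 1 in Bak1 and 1 in Mcl1, where 2.27% of all junctions did. Intervals and limits below cover counting error only, since reads amplified from little RNA are not independent molecules.

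For Bcl2l11 more reads spanned the constitutive junctions in every cKO library than in any control library, and reads of the S form were found in all 3 cKO libraries and in 0 control libraries. The first intron was spanned by 726, 382 and 398 reads in cKO and by 46, 53 and 82 in control. The junction from the BH3 exon to the last coding exon had 558, 245 and 381 reads in cKO and 44, 48 and 48 in control. The S junction, which skips both stretches printed above and joins the BH3 exon directly, had 77, 32 and 41 reads in cKO and 0 in each control library. Of reads into the BH3 exon, S made up 12.9%, 10.7% and 12.2% in cKO, or 11.9% ± 1.16 (SD, n = 3). Control held 0 of 169 such reads, which allows a share of up to 1.78%. The difference had an adjusted p of 0.0758 in edgeR's diffSpliceDGE, over a cluster share of 8.67% in cKO and 0% in control. The exact two-sided permutation test gave p = 0.10, the smallest possible with 3 against 3 libraries. S is the form of BIM that kills most strongly when overproduced and lacks the dynein tether.

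The balance of L and EL did not separate the groups. The L junction had 284, 71 and 132 reads in cKO and 6, 14 and 34 in control. As a share of the reads that join the 90-base exon to the BH3 exon, these were 54.8%, 26.5% and 44.9% in cKO and 20%, 16.1% and 65.4% in control. The values overlapped widely, and the 30 to 87 such reads of each control library limit their precision.

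Reads also joined Bcl2l11 to sites outside its annotated span, at low counts in cKO and with 0 reads in control. From the donor of the BH3 exon, 16 of 574, 9 of 254 and 9 of 390 reads in cKO went to acceptors beyond the end of the gene, a share of 2.88% ± 0.623 (SD, n = 3). Control had 0 of 140 such reads, which allows up to 2.14%. The cKO libraries, at 2.79%, 3.54% and 2.31%, lay above that limit, while the exact (Clopper-Pearson) 95% intervals of the pooled reads, 1.94% to 3.88% in cKO and 0% to 2.60% in control, overlapped (exact two-sided permutation test over libraries, p = 0.10). Upstream, an unannotated intron at chr2:128123688-128126053 joined the start of the first exon with 29, 11 and 2 reads in cKO and 0 in every control library. A second, at chr2:128125496-128126053, used the same acceptor with 11, 2 and 0 reads in cKO and 0 in every control library. Neither passed the junction test, which set these introns only against each other and so does not compare their use between groups. Control had 46, 53 and 82 reads over the annotated first intron, against 726, 382 and 398 in cKO. Few upstream reads could thus be seen in control at an equal rate of use. The promoter window up to that acceptor, chr2:128125788-128126053 on the plus strand (RefSeq, GRCm38.p6), is printed because these reads cross it, with the last pair of intron bases in capitals.
Bcl2l11 promoter to the acceptor: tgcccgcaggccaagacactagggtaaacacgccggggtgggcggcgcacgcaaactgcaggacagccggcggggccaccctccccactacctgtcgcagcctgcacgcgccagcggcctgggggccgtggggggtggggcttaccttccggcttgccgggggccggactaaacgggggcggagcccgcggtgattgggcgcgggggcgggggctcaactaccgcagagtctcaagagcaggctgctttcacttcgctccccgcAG
On either strand of the RefSeq promoter window of Bcl2l11, which runs past this acceptor, the FOXO motif TGTTTAC was found, as it was in 3.65% of all 32851 windows, and so was the GC box GGGCGG, found in 35.7% of windows. The AP-1 motif TGANTCA, found in 7.81% of windows, was not in this one. A match is a description of letters only.

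**Figure D2:**
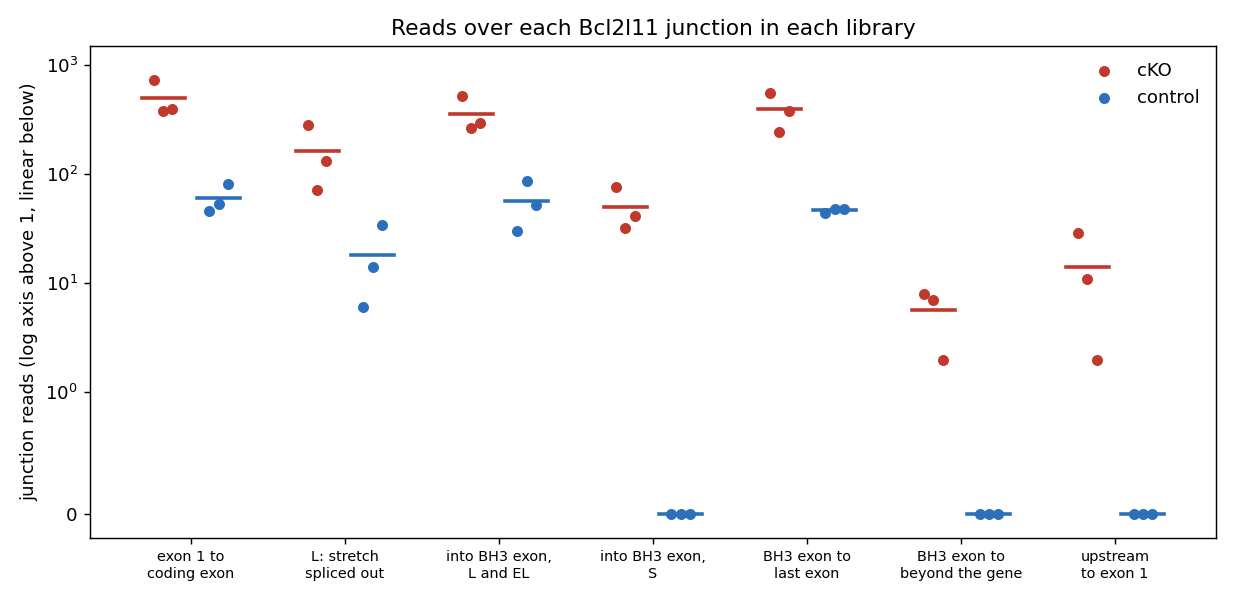
Junction reads of Bcl2l11 in each library (log axis above 1, linear below), with cKO in red to the left of control in blue and the mean of 3 libraries as a line. The S junction, the junction beyond the gene and the upstream junction have reads in cKO and 0 in control, while constitutive junctions have reads in all 6 libraries. Control had far fewer reads over annotated introns of the gene, 130, 202 and 221 against 2183, 1003 and 1246 in cKO, which limits what its zeros show. The adjusted p was 0.0758 for the S junction and 0.804 for the junction beyond the gene (edgeR diffSpliceDGE).

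The Bcl2l1 long form made up nearly all reads in both groups. Its junction had 1854, 1848 and 2365 reads in cKO and 2009, 2422 and 1888 in control. The short form, whose product BCL-XS opposes survival, had 12, 12 and 14 reads in cKO and 0, 5 and 0 in control. This was 0.626% ± 0.0321 in cKO and 0.0687% ± 0.119 in control (SD, n = 3 each). The shares did not overlap, but the diffSpliceDGE adjusted p was 0.472, and the exact two-sided permutation test gave 0.10, the smallest possible. Its junction is not in the annotation. In the leader of the gene, an acceptor 18 bases upstream of the main one took 18.4%, 13.0% and 23.2% of reads in cKO and 1.46%, 5.94% and 5.73% in control. The groups did not overlap (exact two-sided permutation test, p = 0.10), and the larger of its junctions had an adjusted p of 0.290 in edgeR.

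For Mcl1 the known short form, which skips exon 2 and yields a killing product, had 0 reads in every library. The pooled reads allow a share of up to 0.472% in cKO and 0.556% in control. At the donor of exon 2 itself the groups did not overlap. Of reads that leave the donor of exon 2, 30.9%, 25% and 27.3% in cKO went to acceptors beyond the annotated end of Mcl1, against 11.4%, 1.55% and 5.13% in control. Every cKO library lay above the highest control library, a difference of 21.7 percentage points between means (exact two-sided permutation test, p = 0.10). This measure was chosen after its values were seen. As a share of the whole junction cluster, the measure used for the test of junctions, reads of the 2 such junctions that were tested differed by 3.32 percentage points (exact two-sided permutation test, p = 0.10). Among 108017 annotated donors with at least 20 reads in every library, 32 had a larger difference in that direction.

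Most of these reads went to 1 acceptor. The intron chr3:95660009-95769269, 109261 bases long, was spanned by 72, 33 and 47 reads in cKO and by 11, 3 and 2 in control. It made up 2.88% of its cluster in cKO and 0.294% in control, with an adjusted p of 0.0258 in edgeR. The cluster also held junctions of the neighbouring gene Ensa, and this share stayed under the required 5 points. Set against the junctions of Mcl1 alone, it held 10.1% in cKO and 1.61% in control and was called (edgeR, adjusted p = 0.0184). In the cluster test with each library left out in turn, the adjusted p of this intron stayed under 0.05 in 2 of 6 fits. The test against the junctions of Mcl1 alone was not refitted with a library left out. The acceptor opens a stretch of 74 bases at chr3:95769270-95769343, bounded by a donor with junctions to further acceptors. Its intron chr3:95769344-95839172 was spanned by 15, 36 and 47 reads in cKO and 15, 0 and 0 in control (edgeR, adjusted p = 0.188). Its intron chr3:95769344-95772423 was spanned by 74, 4 and 30 reads in cKO and 0, 4 and 0 in control. The latter had an adjusted p of 0.0125 in edgeR, and its cluster share differed by 1.98 percentage points, under the required 5. Its reads were most numerous in cKO replicate 1. The stretch lies in an intron of Rprd2, which runs on the opposite strand. The donor of Mcl1 exon 1 joined the same acceptor with 18, 10 and 6 reads in cKO and 0 in control, and Ensa did so with 15, 11 and 25 reads in cKO and 0 in control. With reads beyond the gene included, junctions absent from the annotation held 18.5%, 13.2% and 16.3% of all Mcl1 junction reads in cKO, against 5.66%, 0.815% and 2.36% in control.

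In Bak1 inclusion of the neuronal microexon overlapped between the groups, while the use of a rare acceptor did not overlap. The microexon was included at 76.9%, 74.9% and 67.5% in cKO and at 77.5%, 73.9% and 71.5% in control. The means of 73.1% ± 4.96 in cKO and 74.3% ± 3.04 in control (SD, n = 3 each) differed by less than the spread of either group. The acceptor 5 bases downstream of the main one was joined by 46, 25 and 25 reads in cKO and by 0, 0 and 1 in control. This was 5.06%, 3.05% and 2.53% of reads to both acceptors in cKO and 0%, 0% and 0.138% in control. The adjusted p was 0.00611 in edgeR's diffSpliceDGE, and the change of 3.48 percentage points stayed under the required size. It passed 0.05 in 3 of 6 fits with a library left out. Both the microexon and the downstream acceptor lie in transcripts that the annotation marks for nonsense-mediated decay.

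The remaining members had few reads at their alternative sites. In Bcl2l2 an unannotated acceptor 23 bases upstream of the main one had 7, 4 and 4 reads in cKO and 0 in control. This was 12.2% ± 7.92 of reads from that donor in cKO (SD, n = 3) and 0 of 91 in control, which allows up to 3.30%, with an adjusted p of 0.347 in edgeR. In Apaf1 the first intron ended at an acceptor 43 bases upstream in 73.1%, 71.4% and 100% of reads in cKO and 10.7%, 100% and 16.7% in control. These rest on 14 to 27 reads per cKO library and 6 to 28 per control library. None of the 8 Casp9 junctions tested and neither of the 2 Bid junctions reached an unadjusted p under 0.05 in edgeR. Bcl2 had no junction with an alternative to test.

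**Figure D3:**
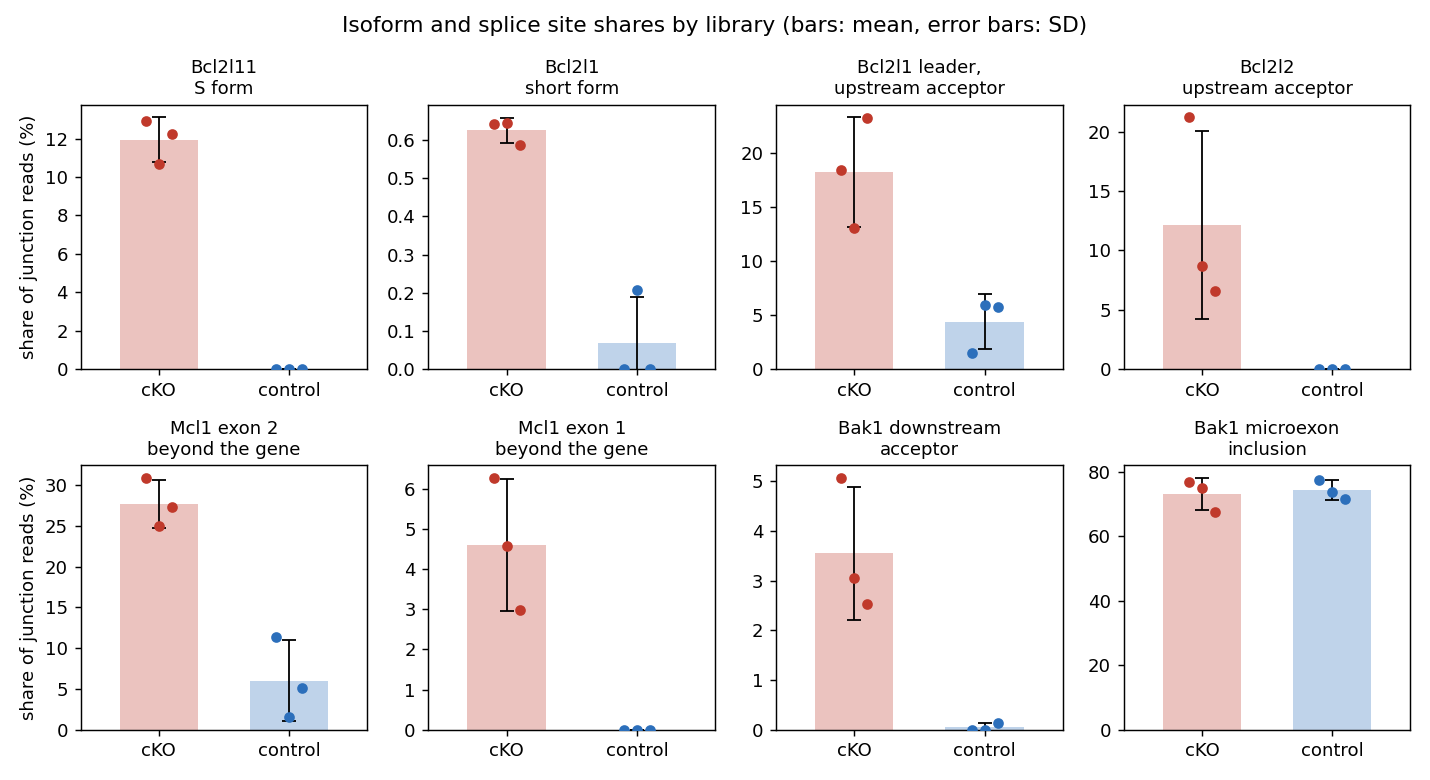
Shares of junction reads in percent for 8 splice choices, with cKO in red to the left of control in blue, points for libraries, bars for the mean of 3 and error bars for the SD, each panel on its own axis. The Bcl2l11 S form reaches 10.7% to 12.9% in cKO and has no reads in control, while Bak1 microexon inclusion overlaps between the groups.

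The genes around the members were read from 9 lists with 77 genes tested, which were chosen with earlier results of these data known. Of these genes 13 rose and 3 fell in cKO (edgeR, adjusted p under 0.05), where 4.03% of all genes tested rose and 3.85% fell. The median log2 fold change of the list genes was 0.02, against 0.01 for all genes tested. Of the other BCL2 family genes 2 of 13 rose and 0 fell. Hrk, a BH3-only gene of neurons, stood at 12.4, 9.51 and 7.01 CPM in cKO and at 3.55, 4.17 and 3.82 CPM in control (log2 fold change 1.33, SE 0.22, adjusted p = 0.00525). Bcl2a1b, a survival gene of blood cells with near-identical copies, stood at 2.11, 0.400 and 0.638 CPM in cKO and at 0.0458, 0.132 and 0.151 CPM in control (log2 fold change 3.24, SE 0.79, adjusted p = 0.0329), a call that held only without cKO replicate 2 among the fits that left out a library (up to 0.200). Reads of such copies cannot be assigned with certainty. It was highest in cKO replicate 1, as the summed microglial markers were, and their part in it was not tested. The BH3-only genes Bad, Bmf and Bik and the effector Bok did not pass.

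All 3 p53-target members of the family rose, where 4.03% of all genes tested did. Bax, the partner effector of Bak1, stood at 38.4, 37.6 and 43.0 CPM in cKO and at 16.1, 16.5 and 15.3 CPM in control (log2 fold change 1.31, SE 0.10, adjusted p = 0.000133). Pmaip1, which encodes the MCL1-binding protein NOXA, stood at 5.46, 4.44 and 3.23 CPM in cKO and at 0.786, 0.918 and 0.512 CPM in control (log2 fold change 2.57, SE 0.32, adjusted p = 0.00150). Bbc3, which encodes PUMA, rose by 1.32 (SE 0.26, adjusted p = 0.0132), a call lost without cKO replicate 2 (adjusted p = 0.0586). The groups were fully separate in each of the 3 genes, as they were in 28.4% of all genes tested.

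Of the other caspases read, 1 of 6 rose and 0 fell. Casp2, an initiator caspase, had a log2 fold change of 0.56 (SE 0.13, edgeR, adjusted p = 0.0263), and its call was lost without cKO replicates 1 or 3 or control replicates 2 or 3 (up to adjusted p = 0.122). Casp6, an effector caspase, did not pass, with a log2 fold change of 0.20. Casp8, the initiator of the receptor route, was at 2.95, 1.34 and 3.45 CPM in cKO and at 0.993, 1.53 and 0.714 CPM in control (adjusted p = 0.105).

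Of 17 genes of the apoptosome and of caspase control, 2 rose and 1 fell. Dffb, the nuclease that cuts DNA in apoptosis, had a log2 fold change of 0.83 (SE 0.22, adjusted p = 0.0497), and its partner inhibitor Dffa one of -0.38 (SE 0.09, adjusted p = 0.0300). The Dffb call was lost without any 1 library (adjusted p between 0.0877 and 0.150), and the Dffa call without any library but control replicate 3 (up to 0.122). Naip2, an inflammasome gene with near-identical copies, stood at 1.45, 0.624 and 0.350 CPM in cKO and at 0.0687, 0.0695 and 0.101 CPM in control (log2 fold change 3.33, SE 0.73, adjusted p = 0.0216), a call lost without cKO replicate 1 or control replicates 1 or 2 (up to 0.134). Cytochrome c itself (Cycs) and the caspase inhibitor Xiap did not pass, with log2 fold changes of -0.28 and 0.04.

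Of 9 death receptor and adaptor genes 2 rose and 1 fell. Tnfrsf10b, the mouse TRAIL receptor, stood at 5.84, 6.80 and 4.93 CPM in cKO and at 1.92, 2.21 and 1.61 CPM in control (log2 fold change 1.61, SE 0.23, adjusted p = 0.00243). Ngfr, the p75 neurotrophin receptor, stood at 45.8, 19.7 and 19.4 CPM in cKO and at 9.02, 11.8 and 12.4 CPM in control (log2 fold change 1.36, SE 0.30, adjusted p = 0.0234), with cKO replicate 1 again the highest. Its call was lost without control replicates 1 or 2 (up to adjusted p = 0.0756). Tnfrsf21, or death receptor 6, fell by 0.40 on the log2 scale (SE 0.10, adjusted p = 0.0320), a call lost without cKO replicates 2 or 3 or control replicate 2 (up to 0.134). Among mitochondrial pore genes 0 of 6 passed in edgeR. The highest, Slc25a4 and Vdac1, had log2 fold changes of -0.20 and -0.15 (edgeR, adjusted p = 0.197 and 0.446). The summed levels of the list did not overlap, at 2257 to 2362 CPM in cKO and 2459 to 2727 CPM in control.

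Of 4 genes that encode factors known to act on Bcl2l11 transcription, 2 rose and 0 fell. Ddit3, the stress factor CHOP, stood at 34.7, 24.7 and 25.3 CPM in cKO and at 11.3, 8.19 and 9.31 CPM in control (log2 fold change 1.56, SE 0.17, adjusted p = 0.000697). Jun stood at 97.5, 98.9 and 96.2 CPM in cKO and at 46.6, 49.3 and 60.5 CPM in control (log2 fold change 0.90, SE 0.11, adjusted p = 0.00115). Both calls held with each library left out. The groups were fully separate for both genes, as they were in 28.4% of all genes tested. Foxo1 and Foxo3 did not pass, with log2 fold changes of -0.15 and 0.15. Of 5 genes of MCL1 turnover only Fbxw7, which encodes a ubiquitin ligase subunit, was called, and it fell by 0.44 (SE 0.09, adjusted p = 0.0150), a call lost without cKO replicate 3 or control replicate 2 (up to 0.0868). Of 14 regulators of Bcl2l1 splicing, Rbm10 rose by 0.48 (SE 0.12, adjusted p = 0.0386) and 13 did not pass. Its call was lost without any 1 library (adjusted p between 0.0509 and 0.167).

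**Figure D4:**
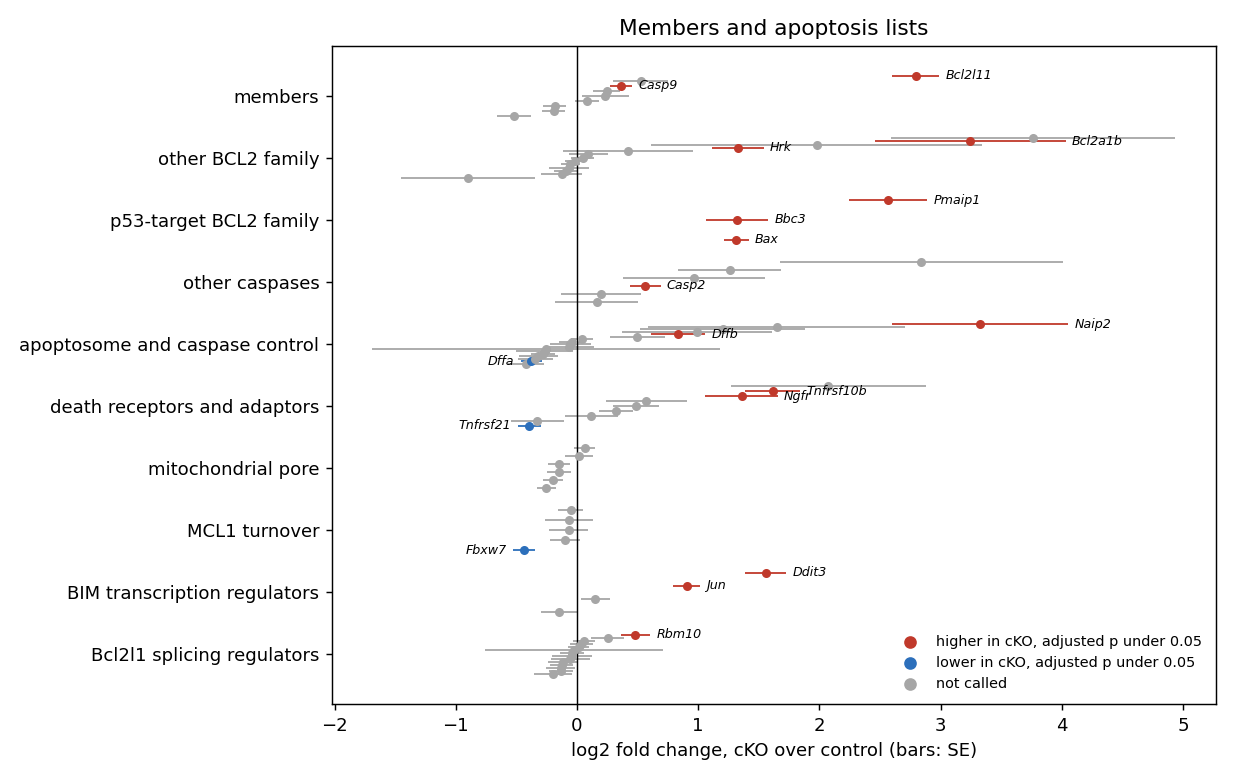
Log2 fold change of cKO over control with its SE for the 9 members (top) and the tested genes of 9 apoptosis lists, with called genes named and coloured. Bcl2l11 at 2.79 stands apart from the other members, and called rises (13 of 77 list genes) outnumber called falls (3 genes). Of all genes tested 4.03% were called as rises and 3.85% as falls, and the lists were chosen with earlier results known.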

How the data were processed

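The 6 libraries held ribosome-bound RNA, amplified from 10 ng per the labels' protocols, so reads are not independent molecules. The authors deposited raw counts per gene for all libraries and, per the file headers, TopHat lists of junctions with the count of spanning reads. The submitters' processing notes name TopHat2 2.1.0, HTSeq 0.6.0 and mm10. For gene counting, neither annotation nor strand setting is given in the sources used here. No measured column was left unused.

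The gene test was the quasi-likelihood test of edgeR 4.0.16 (R 4.3.3), cKO against control with no covariate, after filterByExpr and TMM scaling, with Benjamini-Hochberg adjustment over 16067 genes and a threshold of 0.05. CPM and RPKM used TMM-scaled library sizes and the merged exons of GENCODE vM21 on GRCm38, the same build as mm10. Each SE is the size of the log2 fold change over the root of F. Junctions with at least 10 reads over 6 libraries, in at least 2 of them, formed 29112 clusters and were tested with diffSpliceDGE, each against the rest of its cluster, with adjustment over 112047 junctions. Coordinates of introns are 1-based first and last bases. Floors are 3 reads of the total, and exact permutation tests over 3 against 3 libraries cannot go below 0.10. Both tests were first run on simulated data, whose outcome is not used here as support. The simulated junction changes lay only in small, well-covered clusters, so they do not cover the sparse clusters among the members.

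The members and lists were chosen with earlier results of these data known. Named were all members, up to 4 called genes per list with the smallest p, and otherwise the highest genes; others were named after their values were seen, as were the Mcl1 and unannotated junctions. Part of the caspase list is not reported here. Of the other 84 list symbols 83 were found in the table. Replicates were separate animals per the series' design. Same-numbered libraries did not deviate together, and the main tests did not treat them as pairs. With 3 libraries per group this cannot exclude a pairing. Alternatives were other scalings, filters, DESeq2 1.42.0, limma-voom 3.58.1, reads over annotated introns, a replicate block, each library left out, and other junction rules.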

Additional observations from a re-analysis of the deposited data

How the results depend on the processing

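Of the members, Bcl2l11 was called under every one of the 15 alternatives of the gene test. The number of members called lay between 1 and 3 with a library left out, against 2 with all, and was 1 with reads over annotated introns. The genes called, 1265 with all libraries, numbered between 530 and 1037 with a library left out, 2089 with DESeq2 and 842 with reads over annotated introns. The called list genes, 16 with all libraries, numbered between 7 and 12 with a library left out and 5 with reads over annotated introns. Fewer libraries or fewer reads enter these fits by construction, and the cause of the DESeq2 count was not tested. The sign turned for Bcl2l2 (-0.13) and Mcl1 (0.072) with reads over annotated introns, and the cause was not tested. Junctions called, 842 in all, numbered 436 at 10 percentage points, 237 when set against the rest of the gene, 2539 by adjusted p alone (chosen after seeing the data) and between 516 and 697 with a library left out. Member junctions called numbered 0, and became 1 against the rest of the gene and 2 by adjusted p alone. The Bcl2l1 short form differed by 0.557 percentage points, between 0.523 and 0.626 with a library left out. Mcl1 reads to acceptors beyond the gene differed by 3.32 points of the cluster (tested junctions) and by 21.7 points of the exon 2 donor's reads, a measure added after seeing the data. With a replicate block 1734 genes, 3 members, 15 list genes, 777 junctions and 0 member junctions were called. Same-numbered libraries had correlations of 0.04, -0.06 and 0.02 in their deviations from the group means. With so few libraries these cannot settle whether the numbers pair samples. The cause of the higher gene count with the block was not tested.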
